A study of Homo sapiens with 15 samples.

Results

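Shelterin and telomere maintenance genes were followed in HT-1080 cells, a line established from a human fibrosarcoma, as the cells went from cycling to senescent and were then given the kinase inhibitor GNF-7. The 10 genes were chosen by symbol from the 60670 genes of the count table. The choice used no measured value as a rule, but earlier results of these data were known when it was made. They are the 6 shelterin genes (TERF1, TERF2, TERF2IP, TINF2, ACD and POT1), the telomerase genes TERT and TERC, and RTEL1 and DCLRE1B. The study comprised 15 libraries in 5 groups of 3. Cycling cells received the vehicle DMSO and carry the time label 6 h. The other 4 groups were senescent cells that had expressed a dominant negative mutant of TRF2, the protein of TERF2, for 6 days and that were then given either GNF-7 at 1 uM or its vehicle, over 6 h or 24 h. Cycling cells given GNF-7 were not analysed here. All groups were HT-1080 cells grown at 5% oxygen in medium with serum free of tetracycline. Senescence therefore rests on the introduced TRF2 mutant in this cell line, and the labels do not say whether the cells were a clone or whether cycling cells carried the mutant unexpressed. The labels call the libraries of a group biological replicates and say no more, so p-values measure the spread between these libraries.

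Telomeres are the repeat-bearing ends of chromosomes, and shelterin is the protein complex that coats them and keeps them from being read as DNA breaks. TRF1 and TRF2 bind the double-stranded repeat, POT1 binds the single-stranded overhang, TPP1 (gene ACD) partners POT1, TIN2 (gene TINF2) bridges these parts, and RAP1 (gene TERF2IP) rides on TRF2. Loss of TRF2 function uncaps telomeres, so a dominant negative TRF2 is a classical way to drive cells into senescence. Telomerase, which many cancer cells keep active, extends the ends with its reverse transcriptase TERT and its template RNA TERC.

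The repeat that all of these proteins serve can be read from the template in TERC, shown here because the gene itself gave almost no reads. Bases 16 to 86 of the 541-base transcript in GENCODE release 29 are printed as DNA letters, and the capitals at bases 46 to 56 mark the only stretch of 11 bases in the transcript that lies within tandem copies of the complement of the telomere repeat TTAGGG.
TERC: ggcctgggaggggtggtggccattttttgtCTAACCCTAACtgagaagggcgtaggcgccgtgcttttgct
TERC (ENSG00000270141, GRCh38 chromosome 3, 169764520 to 169765060, minus strand, 1 exon) had 2 counts in a single cycling library, replicate 2, and 0 in the other 14 libraries. A count of 0 allows up to 3 counts, which was at most 0.115 CPM (counts scaled to a common library size) in any library. That value divides by the library total alone, whereas the other CPM values here are also TMM-scaled. The limit covers counting error only. An entry for the same RNA, RF00024, covers 81.0% of the TERC exon on the same strand and was also at 0 throughout. How reads that fall on both entries were counted is not given in the sources used here, so the limit holds only for reads that the counting could assign to TERC. Libraries were made with an mRNA kit, and mature TERC has no long poly(A) tail. TERC did not reach the minimum for testing, so 9 of the 10 genes were tested and no statement is made on its level.

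Library totals ranged from 25991007 to 32323393 counts. Of the 10 markers of fibrosarcoma cells listed, VIM was the most abundant in every group (3474 to 4460 CPM as group means), S100A4 was at most 2.75 CPM and THY1 had no count in any library. The summed level of these markers was 9803 to 10080 CPM in cycling libraries and 10552 to 11422 CPM in senescent vehicle libraries at 6 h. It was 10807 to 12007 CPM in vehicle at 24 h and 6477 to 6819 CPM after GNF-7 for 24 h. Summed over each list, epithelial markers stayed at or under 5.68 CPM, leukocyte markers at or under 6.10 CPM and endothelial markers at or under 3.14 CPM, with EPCAM, CDH1 and PTPRC at or under 0.14 CPM as group means. Epithelial markers moved with the groups. After GNF-7 for 24 h both tested genes of the 8 listed were called higher by edgeR (log2 fold changes 1.02 and 3.99), where 29.3% of all genes were. Of these 2 genes 1 was called higher after GNF-7 for 6 h (2.94) and 1 in senescence (2.97). The shares of all genes called higher there were 17.9% and 35.6%. The summed level of epithelial markers was 3.92 to 5.68 CPM after GNF-7 for 24 h against 1.16 to 1.80 CPM in vehicle at that time. As group means ESRP1 was at 2.65 against 0.16 CPM and CLDN4 at 1.75 against 0.86 CPM. The part of these markers in the results was not tested. The share of counts in mitochondrial genes moved with the groups. It was 3.75% to 5.01% in cycling libraries, 11.2% to 12.4% in senescent vehicle libraries at 6 h and 15.1% to 18.7% in those at 24 h. After GNF-7 it was 13.2% to 15.3% at 6 h and 22.6% to 24.1% at 24 h. Its part in the results was not tested beyond leaving these genes out, which changed no call of a member. Cell-cycle genes moved with the groups as well. All 20 on a list were called lower in senescence and after GNF-7 for 24 h, where 34.4% and 29.7% of all genes were. The summed level of this list was 4911 to 5172 CPM in cycling libraries and 1233 to 1292 CPM in senescent vehicle libraries at 6 h. It was 1166 to 1184 CPM in vehicle at 24 h and 654 to 688 CPM after GNF-7 for 24 h. In such bulk samples, fewer cells of a type and less RNA per cell cannot be told apart.

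Senescent cells had more TERF2 and less of most other telomere genes than cycling cells, in vehicle at 6 h. The largest falls were in DCLRE1B, RTEL1 and TERT, to between 29.6% and 41.6% of the cycling level, followed by POT1 and ACD at 57.4% and 61.8%. TINF2 rose by 1.21-fold and TERF2IP was not called. A gene is called here at an adjusted p under 0.05 from the edgeR quasi-likelihood test, with Benjamini-Hochberg adjustment over all 18563 genes tested. Of 9 members 8 were called, 2 higher and 6 lower, where 70.0% of all genes were called (35.6% higher and 34.4% lower). TERF2 is 1 of the 2 higher, and its counts include the introduced mutant that defines the senescent groups. Of the other 5 shelterin genes 1 was called higher and 3 lower.

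After GNF-7 for 6 h TERF2, TERF2IP and DCLRE1B were called lower in senescent cells and no member was called higher. That is 3 of 9 members called, where 39.3% of all genes were (17.9% higher and 21.4% lower). After 24 h 6 of 9 members were called, 2 higher and 4 lower, where 58.9% of all genes were (29.3% higher and 29.7% lower). TERT and DCLRE1B fell to 52.5% and 54.0% of the vehicle level, TERF2 to 60.1% and TERF2IP to 82.4%, whereas ACD and POT1 rose by 1.28-fold and 1.21-fold. The comparisons at 6 h of senescent with cycling cells and of GNF-7 with vehicle share the senescent vehicle libraries.

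**Figure D1:**
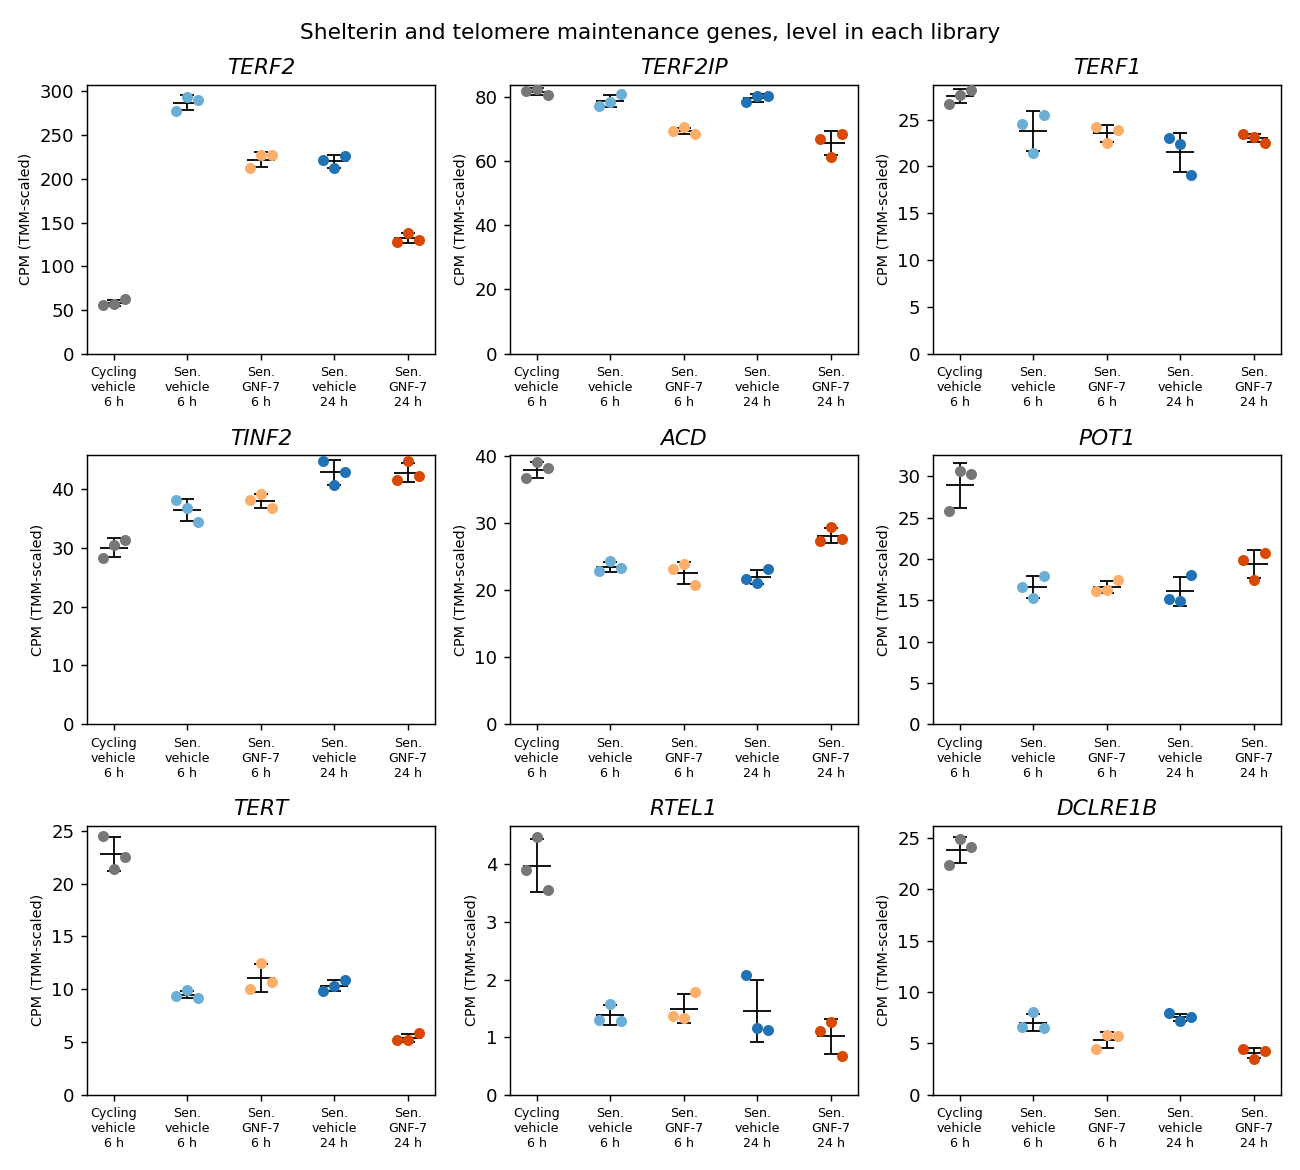
Level of each tested member in every library, in TMM-scaled counts at a common library size (CPM, y axis from 0), by group. Points are libraries, and black bars are the mean and SD of 3 libraries. TERF2 is lowest in cycling libraries (55.7 to 62.4 CPM), whereas TERT, RTEL1 and DCLRE1B are highest there and lowest on average after GNF-7 for 24 h.

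TERF2 (ENSG00000132604, chromosome 16, 69355561 to 69408571, minus strand, 12 merged exons) encodes the shelterin protein that hides chromosome ends from damage signalling. Its counts mix the endogenous transcript with that of the introduced mutant, which the table does not separate. The cycling libraries had 55.7, 56.6 and 62.4 CPM and the senescent vehicle libraries at 6 h 278, 293 and 291 CPM. After GNF-7 for 6 h the libraries had 212, 227 and 227 CPM. Vehicle at 24 h gave 222, 212 and 226 CPM and GNF-7 at 24 h gave 128, 138 and 130 CPM. Every senescent library was above every cycling one, and within each time the GNF-7 libraries lay below the vehicle libraries. The log2 fold change was 2.30 in senescence (SE 0.044, edgeR adjusted p 1.79e-48), -0.37 after GNF-7 for 6 h (SE 0.040, adjusted p 7.34e-12) and -0.73 after 24 h (SE 0.041, adjusted p 3.53e-24). Which transcripts of the mixture moved under GNF-7 cannot be told apart. GNF-7 for 6 h and vehicle for 24 h are neighbours in the order of the groups and overlapped, at 222 ± 8.60 and 220 ± 7.26 CPM (SD, n = 3). Even after GNF-7 for 24 h TERF2 stayed above the cycling level, 132 ± 5.38 against 58.2 ± 3.65 CPM.

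TERF2IP (ENSG00000166848, chromosome 16, 75647786 to 75761872, plus strand) encodes RAP1, the partner that TRF2 brings to telomeres. It was among the steadiest members, with 81.7, 82.5 and 80.4 CPM in cycling libraries, 77.0, 78.2 and 80.8 in senescent vehicle libraries at 6 h and 78.2, 80.3 and 80.1 in those at 24 h. The senescent vehicle libraries at 6 h overlapped the cycling ones, and the change in senescence was -0.05 on the log2 scale (95% interval -0.14 to 0.04, edgeR adjusted p 0.312), which a stricter filter, a mean CPM of at least 5, turned into a call in the other direction (0.099, edgeR adjusted p 0.0347). GNF-7 gave 69.2, 70.4 and 68.3 CPM at 6 h and 66.9, 61.2 and 68.4 CPM at 24 h. All 6 GNF-7 libraries were below all vehicle libraries, with log2 fold changes of -0.18 at 6 h (SE 0.046, edgeR adjusted p 8.29e-04) and -0.28 at 24 h (SE 0.046, adjusted p 3.55e-07). TERF2 and TERF2IP were the 2 shelterin genes called lower after GNF-7 at both times.

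TERF1 (ENSG00000147601, chromosome 8, 73008864 to 73048122, plus strand) encodes TRF1, the other protein that binds the double-stranded repeat. It had 26.7, 27.6 and 28.2 CPM in cycling libraries and 24.5, 21.4 and 25.5 CPM in senescent vehicle libraries at 6 h, which was -0.21 on the log2 scale (SE 0.073, edgeR adjusted p 0.00851). The groups did not overlap, but the call was lost with total-count scaling (-0.08, adjusted p 0.342), under the 5 CPM filter (-0.06, adjusted p 0.439) and without senescent vehicle 6 h replicate 2 (-0.14, adjusted p 0.11). With that scaling the median over all genes tested was 0.19 in senescence, against 0.06 otherwise. The 4 senescent groups had means between 21.5 and 23.8 CPM, and neighbours in that order overlapped. GNF-7 changes were -0.014 at 6 h (95% interval -0.16 to 0.13) and 0.096 at 24 h (-0.05 to 0.25), the latter called under the 5 CPM filter (0.20, edgeR adjusted p 0.0158).

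TINF2 (ENSG00000092330, chromosome 14, 24239643 to 24242674, minus strand, 4 merged exons) encodes TIN2, the hub that ties TRF1, TRF2 and TPP1 together. It was the only shelterin gene besides TERF2 called higher in senescence, at 28.2, 30.5 and 31.3 CPM in cycling and 38.1, 36.8 and 34.4 CPM in senescent vehicle libraries (log2 fold change 0.28, SE 0.061, edgeR adjusted p 5.17e-05). Vehicle libraries at 24 h were higher again, at 44.8, 40.7 and 43.0 CPM, which was 0.23 above vehicle at 6 h (SE 0.059, edgeR adjusted p 0.00259). Total-count scaling took that later call away (0.12, adjusted p 0.126). GNF-7 did not move the gene beyond its spread. The change was 0.06 at 6 h (95% interval -0.06 to 0.18, edgeR adjusted p 0.456) and -0.00084 at 24 h (-0.12 to 0.12, adjusted p 0.992), where GNF-7 libraries had 41.5, 44.7 and 42.1 CPM.

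ACD (ENSG00000102977, chromosome 16, 67657512 to 67660815, minus strand) encodes TPP1, which recruits telomerase and holds POT1 at the telomere. Cycling libraries had 36.7, 39.1 and 38.2 CPM and senescent vehicle libraries at 6 h 22.9, 24.3 and 23.2 CPM. GNF-7 for 6 h left it at 23.1, 23.9 and 20.7 CPM. At 24 h vehicle gave 21.7, 21.1 and 23.1 CPM and GNF-7 27.4, 29.4 and 27.6 CPM. The log2 fold change was -0.69 in senescence (SE 0.066, edgeR adjusted p 2.11e-14), -0.06 after GNF-7 for 6 h (95% interval -0.19 to 0.08) and 0.36 after 24 h (SE 0.068, adjusted p 8.26e-06). All GNF-7 libraries at 24 h lay above the other senescent libraries and below the cycling ones.

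POT1 (ENSG00000128513, chromosome 7, 124822386 to 124929983, minus strand, 21 merged exons) encodes the protein that covers the single-stranded overhang. Its levels were 25.7, 30.7 and 30.3 CPM in cycling libraries and 16.7, 15.3 and 17.9 CPM in senescent vehicle libraries at 6 h. Its level was 16.1, 16.2 and 17.5 CPM after GNF-7 for 6 h, 15.2, 14.9 and 18.1 CPM in vehicle at 24 h and 19.9, 17.5 and 20.8 CPM after GNF-7 for 24 h. Cycling libraries stood above all others, while the GNF-7 and vehicle libraries at 24 h overlapped. The log2 fold change was -0.80 in senescence (SE 0.083, edgeR adjusted p 4.11e-13), 0.0015 after GNF-7 for 6 h (95% interval -0.17 to 0.17) and 0.27 after 24 h (SE 0.086, adjusted p 0.00500). The call at 24 h was lost without GNF-7 24 h replicate 3 (0.22, adjusted p 0.0506).

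**Figure D2:**
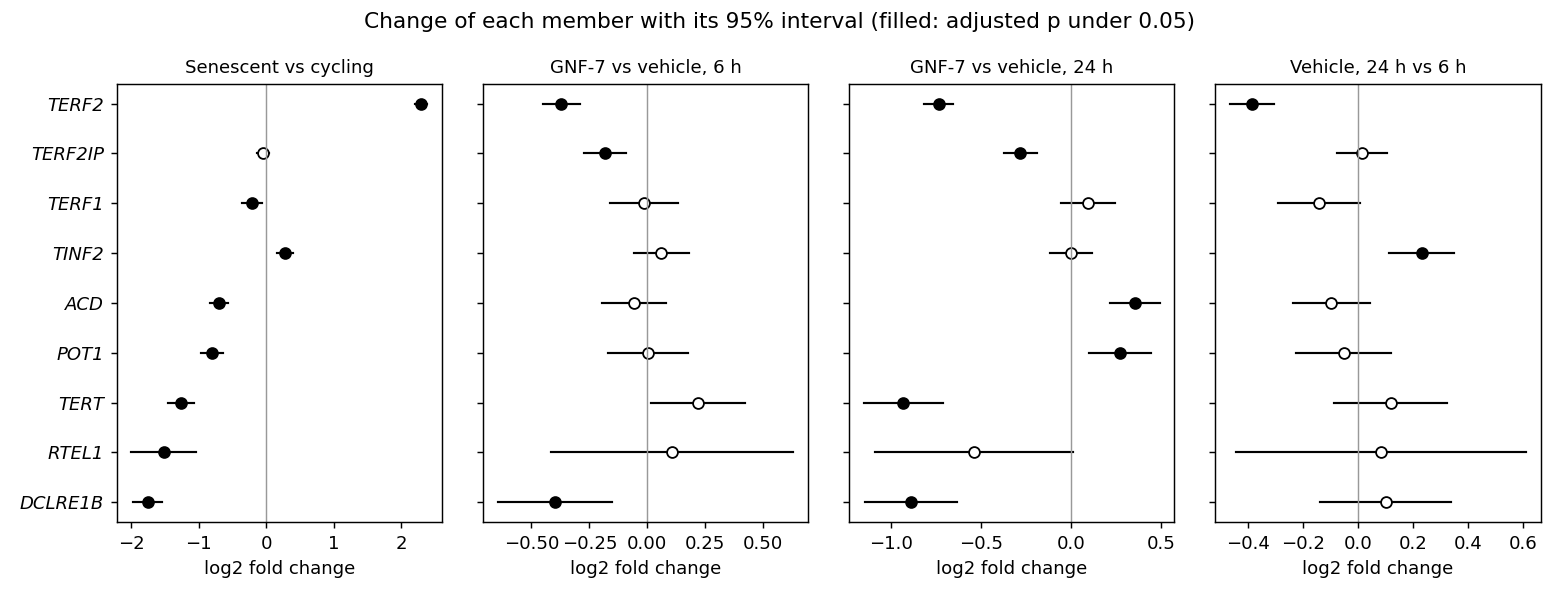
Log2 fold change of each tested member in 4 comparisons, with its 95% interval (x axes differ between panels). Filled points have an edgeR adjusted p under 0.05. In senescence TERF2 stands at 2.30 and DCLRE1B at -1.76, and after GNF-7 for 24 h ACD and POT1 lie above 0 while TERF2, TERF2IP, TERT and DCLRE1B lie below it.

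Levels of different genes were compared per length, as CPM per kilobase of merged exons in GENCODE release 29. In cycling cells the order of the shelterin genes was TERF2IP at 24.1 ± 0.31 CPM per kilobase (SD, n = 3), ACD at 11.8 ± 0.38, TINF2 at 11.1 ± 0.59, TERF2 at 10.4 ± 0.65, POT1 at 4.90 ± 0.47 and TERF1 at 3.11 ± 0.084. In senescent vehicle cells at 6 h TERF2 came first at 51.1 ± 1.45 CPM per kilobase, and its share of the shelterin sum went from 15.9 ± 0.75% to 50.8 ± 0.74%. That share was 45.7 ± 1.16% after GNF-7 for 6 h, 43.3 ± 0.42% in vehicle at 24 h and 32.1 ± 1.06% after GNF-7 for 24 h. These shares use the length of the endogenous gene, since the length of the introduced transcript is not given in the sources used here. Without TERF2 the sum of the other 5 genes was 55.0 ± 1.45 CPM per kilobase in cycling cells and between 47.0 ± 1.06 and 51.3 ± 0.82 in the 4 senescent groups.

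**Figure D3:**
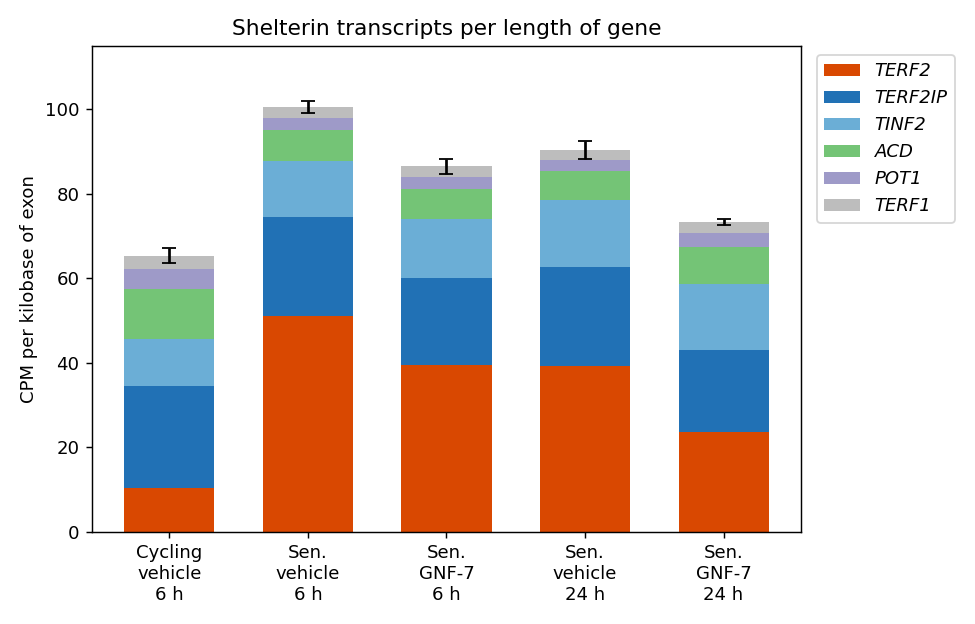
Mean level of the 6 shelterin transcripts per group, in CPM per kilobase of merged exon, stacked. Black bars are the SD of the sum over 3 libraries. The sum is 65.3 in cycling cells and 101 in senescent vehicle cells at 6 h, while the TERF2 segment goes from 10.4 to 51.1.

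TERT (ENSG00000164362, chromosome 5, 1253147 to 1295069, minus strand, 16 merged exons) encodes the catalytic subunit of telomerase. It was expressed in every library, at 24.5, 21.4 and 22.6 CPM in cycling cells and 9.37, 9.88 and 9.19 CPM in senescent cells given vehicle for 6 h. GNF-7 for 6 h gave 9.98, 12.5 and 10.7 CPM, all above vehicle at that time. By 24 h vehicle libraries had 9.83, 10.3 and 10.9 CPM and GNF-7 libraries 5.14, 5.23 and 5.84 CPM, the lowest of all groups. The log2 fold change was -1.26 in senescence (SE 0.097, edgeR adjusted p 2.97e-18) and -0.93 after GNF-7 for 24 h (SE 0.110, adjusted p 6.06e-11). At 6 h the value of 0.22 (95% interval 0.02 to 0.42) was not called (edgeR adjusted p 0.0792), but was under the 5 CPM filter (0.27, adjusted p 0.0231) and without GNF-7 6 h replicate 1 (0.29, adjusted p 0.0357). The difference between the GNF-7 effects at the later and the earlier time was -1.15 (SE 0.150, edgeR adjusted p 4.57e-09), the largest among the members, and 4 of 9 members were called in that test, 1 higher and 3 lower, where 30.8% of all genes were (12.8% higher and 18.0% lower). Senescent cells after 24 h of GNF-7 had 5.41 ± 0.38 CPM of TERT against 22.8 ± 1.57 CPM in cycling cells. These 2 groups differ in senescence, drug and time label together, and the difference between them was not tested.

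RTEL1 (ENSG00000258366, chromosome 20, 63657810 to 63696253, plus strand, 39 merged exons) encodes a helicase that unwinds telomere loops during replication. It was the thinnest of the tested members, with 20 to 130 counts per library, and 70.2% of its exon length is shared on the same strand with the readthrough gene RTEL1-TNFRSF6B, so its level is uncertain. Cycling libraries had 3.90, 4.48 and 3.56 CPM and senescent vehicle libraries at 6 h 1.29, 1.58 and 1.28 CPM, which was -1.52 on the log2 scale (SE 0.240, edgeR adjusted p 1.00e-07). The readthrough gene fell by 1.64 on the log2 scale in the same comparison (edgeR adjusted p 1.73e-13). After GNF-7 for 24 h RTEL1 had 1.10, 1.27 and 0.664 CPM against 2.07, 1.16 and 1.12 CPM in vehicle. These libraries overlapped and the change was not called (-0.54, 95% interval -1.09 to 0.01, edgeR adjusted p 0.0888). It was called without vehicle 24 h replicate 2 (-0.68, adjusted p 0.0453) or 3 (-0.69, adjusted p 0.0429) and without GNF-7 24 h replicate 2 (-0.73, adjusted p 0.0418), whereas it was -0.18 (adjusted p 0.653) without vehicle 24 h replicate 1 and -0.31 (adjusted p 0.384) without GNF-7 24 h replicate 3, so single libraries decide it. RTEL1-TNFRSF6B was called lower at that time (-0.62, edgeR adjusted p 0.00473). At 6 h the change of RTEL1 was 0.11 (95% interval -0.41 to 0.63), and no change was detectable at this depth.

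DCLRE1B (ENSG00000118655, chromosome 1, 113905141 to 113914086, plus strand, 4 merged exons) encodes Apollo, the nuclease that TRF2 recruits to trim newly replicated ends. It had the largest fall in senescence among the members, from 22.4, 24.9 and 24.1 CPM in cycling libraries to 6.59, 8.02 and 6.49 CPM in senescent vehicle libraries at 6 h. After GNF-7 it had 4.47, 5.86 and 5.70 CPM at 6 h and 4.44, 3.51 and 4.28 CPM at 24 h, against 7.91, 7.19 and 7.55 CPM in vehicle at 24 h. GNF-7 libraries were below vehicle libraries at both times. Log2 fold changes were -1.76 in senescence (SE 0.110, edgeR adjusted p 3.12e-22), -0.40 after GNF-7 for 6 h (SE 0.123, adjusted p 0.00708) and -0.89 after 24 h (SE 0.128, adjusted p 1.52e-08). The call at 6 h was lost without senescent vehicle 6 h replicate 2 (-0.29, adjusted p 0.0872) and without GNF-7 6 h replicate 1 (-0.29, adjusted p 0.0833). MKI67, a marker of cycling cells, showed -1.77, -0.38 and -1.68 in the same 3 comparisons, and the part of the cell cycle in the falls of DCLRE1B, RTEL1 and TERT was not tested.

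Other genes that act on telomeres were read from 4 lists of 54 symbols, of which 51 genes were tested. In senescence 39 were called lower and 3 higher, where 34.4% of all genes were lower and 35.6% higher, with a median log2 fold change of -0.58 against 0.06 for all genes. All 11 tested genes of telomerase assembly were lower, among them DKC1 (-1.19), which encodes the dyskerin that stabilises TERC, RUVBL1 (-1.05), NHP2 (-0.72) and GAR1 (-0.88). Of 6 tested genes of the CST complex and of polymerase alpha-primase, which fill in the telomere's second strand, 5 were lower. The large falls were those of polymerase alpha-primase, PRIM1 (-2.85), POLA1 (-2.47), POLA2 (-1.85) and PRIM2 (-1.35). Of the CST complex itself CTC1 was called lower by little (-0.25, edgeR adjusted p 0.00534). STN1 was not called (0.14, edgeR adjusted p 0.119) and TEN1 was too low to test. Among 15 genes of telomere replication and end processing 11 were lower and none higher, with EXO1 at -2.68, BLM at -2.62, FEN1 at -2.29 and TIMELESS at -1.97. SLX1B, a near-identical copy of SLX1A, had the only large positive value (1.25, edgeR adjusted p 0.154) at under 1 CPM. Genes of telomere chromatin and binding were mixed, 12 lower and 3 higher of 19, with RIF1 at -1.32, HNRNPA1 at -1.26, TELO2 at -0.92 and USP7 at -0.66. The cell-cycle list had a median of -2.28 in this comparison. Its 20 genes share no symbol with these lists, but all were chosen by symbol, so this shows no independence. The part of the cell cycle in the falls of these lists was not tested.

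GNF-7 changed 27 of these 51 genes at 6 h (10 higher and 17 lower) and 36 at 24 h (11 higher and 25 lower), with medians of -0.05 and -0.17 against 0.01 and 0.04 for all genes. Of all genes 39.3% were called at 6 h (17.9% higher and 21.4% lower) and 58.9% at 24 h (29.3% higher and 29.7% lower). FEN1, the flap nuclease of lagging-strand synthesis, fell by 0.93 at 6 h and by 1.56 at 24 h on the log2 scale. EXO1 and BLM were at -1.71 and -1.04 at 24 h. The list of replication and end processing was split at that time, with 5 of 15 tested genes called higher and 5 lower. Those called higher were RAD50 (0.59), DCLRE1C (0.44), DCLRE1A (0.36), MUS81 (0.30) and DNA2 (0.28). Primase and polymerase alpha genes were lower at 24 h (PRIM2 -0.67, PRIM1 -0.69, POLA1 -0.55 and POLA2 -0.72), and 7 of 11 telomerase assembly genes were, among them RUVBL2 (-0.66), RUVBL1 (-0.40), SHQ1 (-0.39), NHP2 (-0.38) and DKC1 (-0.34). Against this, SIAH1, a ubiquitin ligase, rose by 0.87 at 6 h and 0.83 at 24 h. SMG6, a nuclease of RNA decay that also binds telomerase, rose by 0.46 and 0.48, and ZBTB10 rose by 0.55 at 6 h. DCLRE1C, which encodes the nuclease Artemis and is a relative of DCLRE1B, rose by 0.46 at 6 h, when DCLRE1B fell. The cell-cycle list had medians of -0.26 and -0.86 at these times. Of its 20 genes 16 were called lower and 2 higher at 6 h, and all 20 were lower at 24 h. The part of the cell cycle in the changes of the telomere lists was not tested.

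**Figure D4:**
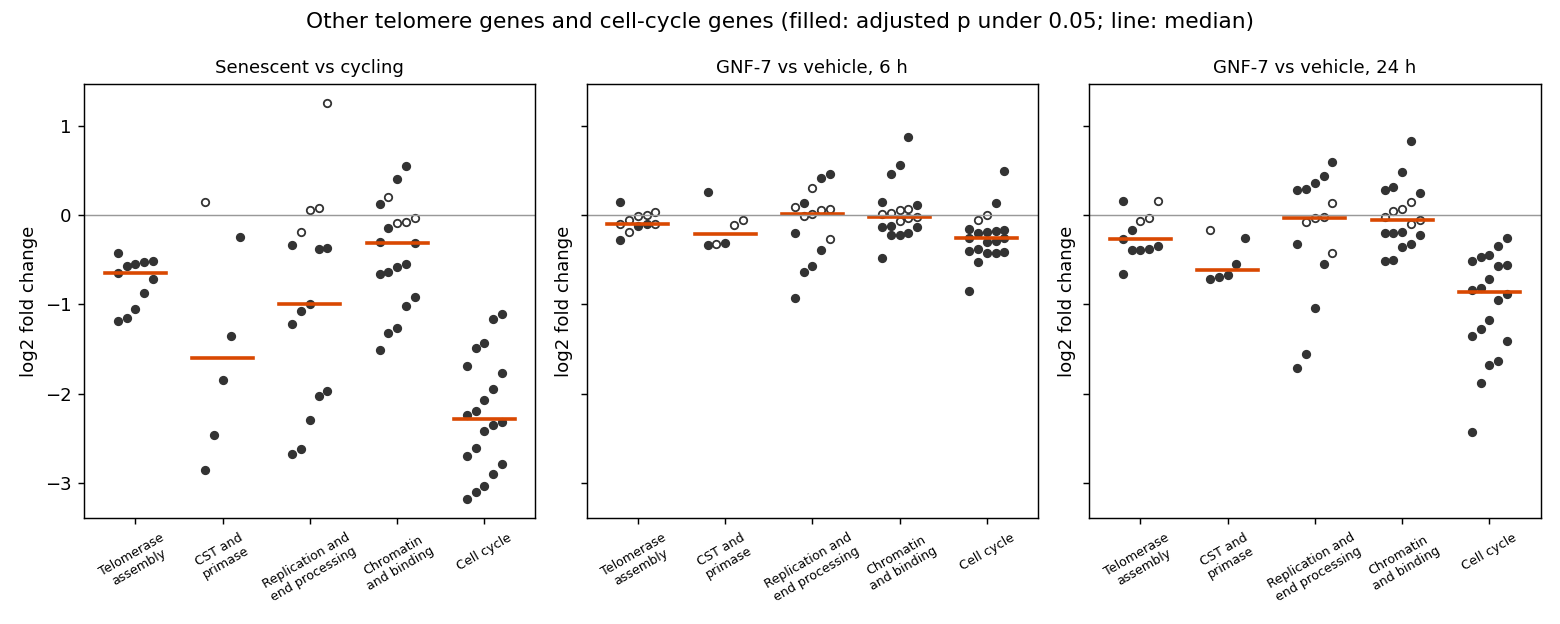
Log2 fold change of the tested genes of 4 telomere lists and of a cell-cycle list in 3 comparisons (y axis shared). Each point is a gene, filled where the edgeR adjusted p is under 0.05, and orange lines are list medians. In senescence the medians run from -0.31 for chromatin and binding to -1.60 for CST and primase and -2.28 for the cell cycle.

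Between 24 h and 6 h of DMSO 2 of 9 members were called, where 18.5% of all genes were (9.26% higher and 9.29% lower). TERF2 was lower (-0.39, SE 0.040, edgeR adjusted p 1.90e-11) and TINF2 higher, and the other 7 had values between -0.14 and 0.12. Of the 51 other telomere genes 12 were called, 11 of them lower, where 18.5% of all genes were called, including TNKS2 (-0.31), which encodes a tankyrase that modifies TRF1, and WRN (-0.29), the helicase lost in Werner syndrome. That count was 6 without vehicle 24 h replicate 1. Total-count scaling gave 24 called genes, and it shifted the median of all genes to -0.10 in this comparison.

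The genes whose pattern over the 5 group means came closest to a member's were sought among 11217 genes with a mean of at least 5 CPM, by the root mean square distance of their centred log2 CPM. Closest to TERF2, whose counts mix endogenous and introduced transcripts, were SLC43A2 (distance 0.082), MR1 (0.107) and SERPINB7 (0.150). Closest to TERT were NEMP2 (0.054), ESM1 (0.102) and ERFE (0.102). For DCLRE1B they were POLA2 (0.071), POLD1 (0.073) and MSH6 (0.080), and for RTEL1 POC1A (0.035), PTTG1 (0.041) and GPN3 (0.048). The closest gene was COMMD4 (0.043) for ACD, FOXD2-AS1 (0.026) for POT1 and TLK2 (0.012) for TERF1. It was CAPN5 (0.016) for TERF2IP and CAMLG (0.015) for TINF2. These distances describe 5 points each and carry no test.

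Promoter windows of 300 bases (250 before and 50 after the start) from RefSeq on GRCh38.p14 were found for 7 of the 10 members, in 10 windows. They were searched on both strands for letters that E2F factors favour (TTCCCGC or the like TTGGCGC), for the cell-cycle element TTTGAA, for the CCAAT box, for the GC box GGGCGG, for the E-box CACGTG and for the telomere repeat TTAGGG. The E2F letters occurred in 1 window of ACD and 1 of 2 windows of RTEL1, and in no window of DCLRE1B, POT1, TERT, TINF2 or TERF2IP. Of all 35116 windows 6.55% hold TTCCCGC and 3.04% TTGGCGC. No member's window held TTAGGG, which 9.05% of all windows do, and GGGCGG, in 45.0% of all windows, was in at least 1 window of each of the 7. No member's window held TTTGAA, which 15.2% of all windows do. CCAAT, in 34.6% of all windows, was found for TINF2 and DCLRE1B. CACGTG, in 7.26% of all windows, was found for TERT and DCLRE1B. The 250 bases before the start are shown for a member that fell in senescence, RTEL1 (chr20:63657560-63657809, plus strand), and one that rose, TINF2 (chr14:24242675-24242924, minus strand), with matched letters in capitals. Of the 2 RTEL1 windows the window shown has the E2F letters, and DCLRE1B and TERT, which also fell, have none.
RTEL1: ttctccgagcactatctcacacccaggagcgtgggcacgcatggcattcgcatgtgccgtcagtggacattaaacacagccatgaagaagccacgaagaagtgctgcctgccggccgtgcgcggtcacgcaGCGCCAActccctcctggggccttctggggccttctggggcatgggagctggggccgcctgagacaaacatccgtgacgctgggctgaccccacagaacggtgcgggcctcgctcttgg
TINF2: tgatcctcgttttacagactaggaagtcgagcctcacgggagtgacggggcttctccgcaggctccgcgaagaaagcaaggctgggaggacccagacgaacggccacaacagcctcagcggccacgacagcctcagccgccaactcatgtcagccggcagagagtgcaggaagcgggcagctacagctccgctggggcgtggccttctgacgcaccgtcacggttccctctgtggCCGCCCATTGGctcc
In RTEL1 the capitals are the complement of TTGGCGC, 119 to 113 bases before the start, and in TINF2 the complements of GGGCGG and CCAAT, 15 to 5 bases before it and adjoining. A match describes the letters only.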

How the data were processed

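RNA of 15 libraries of HT-1080 cells was sequenced, and the values used are the raw counts that the authors deposited by Ensembl identifier. The submitters' processing notes name bcl2fastq 2.20.0.422, STAR 2.7.9a, featureCounts 1.5.1 and build GRCh38. The annotation release and strand setting are not given in the sources used here. Per the labels' protocols, a stranded mRNA kit was used. Columns were matched to libraries by library name. Of 60673 rows, 3 of a broken entry (ANK2) were left out. Coordinates, exon lengths and overlaps are from GENCODE release 29, which holds 58452 of the 60670 identifiers. Overlaps of other genes with the exons of TERF2, TERF2IP, ACD, POT1 and DCLRE1B covered at most 5.21% of them.

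Genes passing filterByExpr (18563) were fitted with edgeR 4.0.16 (R 4.3.3, robust quasi-likelihood, TMM scaling) over all libraries, with a term per group. The 5 contrasts were two-sided, with Benjamini-Hochberg adjustment over all genes. SE is the log2 fold change divided by the square root of F, and 95% intervals use the fit's degrees of freedom. The code was tested on simulated counts. All 15 pairs of libraries within groups differed by more than sampling noise (chi-square per degree of freedom 3.02 to 12.7).

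Alternatives were RLE, total counts, no filter, a mean of at least 5 CPM, DESeq2 1.42.0, limma 3.58.1 voom, a term for the replicate number, fits restricted to each contrast's groups, each library omitted in turn and, added after seeing the data, leaving out mitochondrial genes. The members and lists were chosen with earlier results of these data known. All members are named, and from each list up to 4 called genes with the smallest p per contrast, of which not all are used here. TEN1, STN1, SLX1B, MUS81, NBN, RAD50 and DCLRE1A, and values of list genes in contrasts outside that rule, were added after their values were seen. PINX1 matched 2 identifiers and was not used.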

Additional observations from a re-analysis of the deposited data

Results flagged for a closer look

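By the edgeR interaction test 4 members responded to GNF-7 unequally at the 2 times, given here as the log2 fold change at 24 h less that at 6 h. TERT had -1.15, with all GNF-7 libraries above vehicle at 6 h and all below it at 24 h. The rise of TERT at 6 h was not called in the main fit (0.22, edgeR adjusted p 0.0792). DCLRE1B had -0.49 (edgeR adjusted p 0.0285) and TERF2 -0.36 (adjusted p 4.72e-07), while ACD had 0.41 (adjusted p 5.34e-04). The DCLRE1B difference was not called under limma voom (adjusted p 0.0564) or in 6 of the 12 fits that each left out a library of these groups, with values from -0.61 to -0.39 over the 12. POT1 had 0.27 and was not called (adjusted p 0.0837), but was under the 5 CPM filter and in 3 fits that left out a library.

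Of the 51 other telomere genes 22 passed the same test, 20 with negative and 2 with positive values. Of all genes 30.8% passed, 18.0% with negative and 12.8% with positive values. Those with negative values included RUVBL2 (-0.55), RUVBL1 (-0.42), DKC1 (-0.33), NHP2 (-0.28), POLA1 (-0.49), STN1 (-0.42), PRIM1 (-0.58), PRIM2 (-0.36), FEN1 (-0.63), EXO1 (-1.32), TIMELESS (-0.35), HNRNPA1 (-0.37), UPF1 (-0.20), TNKS1BP1 (-0.20) and ATRX (-0.21), and the others were BLM (-0.77), ZBTB10 (-0.30), NBN (-0.22), RIF1 (-0.22) and TELO2 (-0.21). The positive values were those of DNA2 (0.91), from -0.63 at 6 h to 0.28 at 24 h, and MUS81 (0.28). Groups of 3 libraries are too small for a test of single outlying libraries.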

How the results depend on the processing

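Counts of called members stayed within 1 of the values above under each alternative, at 7 to 8 in senescence, 2 to 4 and 5 to 7 for GNF-7 at 6 h and 24 h, 3 to 5 for their difference and 2 to 3 for vehicle over time. Under the 5 CPM filter the calls in senescence were 3 higher and 4 lower, and 49.4% of all called genes were higher. Values near 0 that were not called in the main fit changed sign. In senescence TERF2IP was 0.081 with total counts, 0.099 under the 5 CPM filter, where it was called, and 0.0076 in a fit of only these groups. TINF2 after GNF-7 for 24 h was 0.027, 0.10 and 0.0013 in these settings, and -0.042 to 0.030 when a library was left out. At 6 h POT1 was -0.018 without a filter and TERF1 0.039 with the 5 CPM filter. Leaving out a library at 6 h gave -0.059 to 0.056 for POT1, -0.088 to 0.035 for TERF1 and -0.041 to 0.21 for RTEL1. For vehicle over time total counts gave -0.0089 for DCLRE1B, -0.095 for TERF2IP, -0.026 for RTEL1 and 24 called telomere genes, 12.5% of all calls being higher in place of 49.9%. Total counts also called TERF1 (-0.25) and ACD (-0.21) lower there. Leaving out a library gave 6 to 11 called telomere genes, -0.14 to 0.0063 for POT1 and -0.28 to 0.23 for RTEL1. The causes were not tested. With a replicate block the members called were 8, 3, 6, 4 and 2 in the 5 contrasts, as without it. Deviations of same-numbered libraries correlated between -0.032 and 0.058. In vehicle over time 6 of 6 libraries correlated best with their own number, and in senescence 0 of 6. For GNF-7 this was 4 of 6 at 6 h and 3 of 6 at 24 h. With 3 libraries per group these values do not settle whether the numbers pair the libraries. RTEL1 has no value with the 5 CPM filter. With 20 to 130 counts per library, RTEL1 had wide intervals.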
